A study of Mus musculus with 20 samples.

Results

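Genes of muscle wasting and of the stress response that accompanies it were followed in skeletal muscle and brain of mice that carry a human mutant TDP-43 transgene. The 10 genes were Fbxo32, Trim63, Foxo1, Foxo3, Mstn, Cdkn1a, Gadd45a, Mt1, Mt2 and Ddit4, taken as every probe annotated to one of these symbols. They are 10 of 16593 genes named on the array and had 15 of its 25697 probes. In muscle 4 mutants were set against 4 wild types, and in brain 6 mutants against 6 wild types, with a separate mouse behind each array. All mice were 17 weeks old and of C57BL/6J background, and the series design calls them male. The mutants are labelled heterozygote for the transgene, and the controls are labelled heterozygote wt. Neither the transgene's promoter, nor its mutation, nor which muscle was sampled is given in the sources used here.

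In a wasting muscle the FoxO transcription factors enter the nucleus when insulin and IGF signalling through Akt falls. There they switch on the ubiquitin ligases Fbxo32 (MAFbx) and Trim63 (MuRF1), which mark muscle proteins for the proteasome. Mstn, or myostatin, is a secreted ligand that limits muscle growth through activin receptors. Cdkn1a (p21) arrests the cell cycle and Gadd45a is a growth-arrest and DNA-damage gene that is induced in denervated muscle. Mt1 and Mt2 are metallothioneins, small proteins that bind zinc and copper and are induced by metals and glucocorticoids. Ddit4 inhibits mTOR signalling and is induced by glucocorticoids and low oxygen.

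Between 11469 and 12446 probes were above background (detection p under 0.05) on each muscle array and between 11736 and 12966 on each brain array. Wild-type muscle 2, wild-type brains 2 and 4 and mutant brain 2 stood apart on the first principal component of their tissue, whose share of the variance was 40.0% (muscle) and 45.4% (brain). The Y-linked gene Eif2s3y was above background in 8 of 8 muscles but in 6 of 12 brains, 3 of each genotype, which goes against the labelled sex. Other sex-linked probes did not all follow it. Y-linked Uty was dimly above background in brains without Eif2s3y, such as wild type 3 (log2 level 4.79) and mutant 1 (4.80). Y-linked Kdm5d was below background in every brain without Eif2s3y, but also in mutant 5, which had it. The Xist probe ILMN_3123341 was above background in every brain without Eif2s3y, but also in wild type 4 and mutant 2, which had it. The brain and tissue results are therefore also given for the 6 brains with Eif2s3y. All 7 skeletal muscle markers with a probe were tested in muscle, where their mean log2 level was 13.5 to 13.7 in the wild types and 13.6 to 13.7 in the mutants. In brain 2 of the 7 were tested, with a mean log2 level of 5.51 to 6.51 in the wild types and 5.26 to 6.26 in the mutants. Ckm, Myh1, Myh4 and Tnnt3 were above background on 0 of the brain arrays. Of 5 neuron markers, Snap25, Syt1, Nefl and Gad1 were above background on 0 of the muscle arrays. Rbfox3 was tested in muscle, at a log2 level of 4.41 to 4.79 in the wild types and 4.34 to 4.78 in the mutants. The probes of Snap25 and Nefl were also below background on every brain array.

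The 250 bases before the transcription start were searched on both strands for binding motifs of factors known to act on these genes. The sequences are those of RefSeq for GRCm38.p6, in which 9 of the 10 genes had an entry. The motifs were the FoxO core GTAAACA, the metal response core TGCACNC or TGCGCNC, the glucocorticoid palindrome (GNACA, any 3 bases, then TGTNC) and the E-box CANNTG. Of 32851 such windows in the mouse, 3.17% held the FoxO core, 21.4% the metal response core, 0.387% the glucocorticoid palindrome and 66.2% an E-box. Trim63 was the 1 gene among the 9 with a FoxO core, which lay on the minus strand 194 to 188 bases before the start, beside a glucocorticoid palindrome at 208 to 196. Mt1 held a glucocorticoid palindrome at 94 to 82 and a metal response core at 23 to 17. Mt2 held 3 metal response cores, which began 223, 128 and 50 bases before the start, and Foxo3 and Ddit4 held 1 each. No match of these motifs overlapped a match of another in the windows printed here. The 3 windows are shown because they hold the FoxO, glucocorticoid and metal response motifs of the ligase and metallothionein genes, with the matches in capitals and every E-box left in lower case. They lie at chr4:134314870-134315119 (plus strand) for Trim63, chr8:94178839-94179088 (plus strand) for Mt1 and chr8:94172368-94172617 (plus strand) for Mt2. A match describes these letters only.
Trim63: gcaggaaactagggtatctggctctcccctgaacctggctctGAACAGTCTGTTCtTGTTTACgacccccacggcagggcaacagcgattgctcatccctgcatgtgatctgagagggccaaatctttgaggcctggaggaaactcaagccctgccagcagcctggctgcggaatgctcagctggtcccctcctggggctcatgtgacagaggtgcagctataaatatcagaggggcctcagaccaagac
Mt1: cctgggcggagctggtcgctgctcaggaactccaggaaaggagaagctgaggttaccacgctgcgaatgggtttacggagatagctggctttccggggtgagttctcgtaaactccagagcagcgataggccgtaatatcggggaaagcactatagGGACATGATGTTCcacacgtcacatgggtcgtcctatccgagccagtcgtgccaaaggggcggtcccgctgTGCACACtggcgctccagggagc
Mt2: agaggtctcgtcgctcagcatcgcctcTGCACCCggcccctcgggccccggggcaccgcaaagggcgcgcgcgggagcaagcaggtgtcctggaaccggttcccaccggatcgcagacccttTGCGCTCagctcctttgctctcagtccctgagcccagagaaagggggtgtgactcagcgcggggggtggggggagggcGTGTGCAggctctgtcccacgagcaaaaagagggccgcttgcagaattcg

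The first comparison was mutant against wild-type muscle. Of the 15 probes, 13 probes of 8 genes were above background on at least 4 muscle arrays and were tested, and 0 of the 13 passed limma's test at an adjusted p under 0.05. Over all 11706 tested probes, 0.179% passed. At an unadjusted p under 0.05 there was 1 of the 13, a Gadd45a probe, against 364 of all tested probes. The log2 differences, mutant minus wild type, were below 0 for 10 probes and above 0 for 3, with a median of -0.16 against 0.0079 over all tested probes, and the adjusted p was 0.999 for each of the 13. Levels are normalized log2 intensities, set within 1 probe and never between probes.

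**Figure D1:**
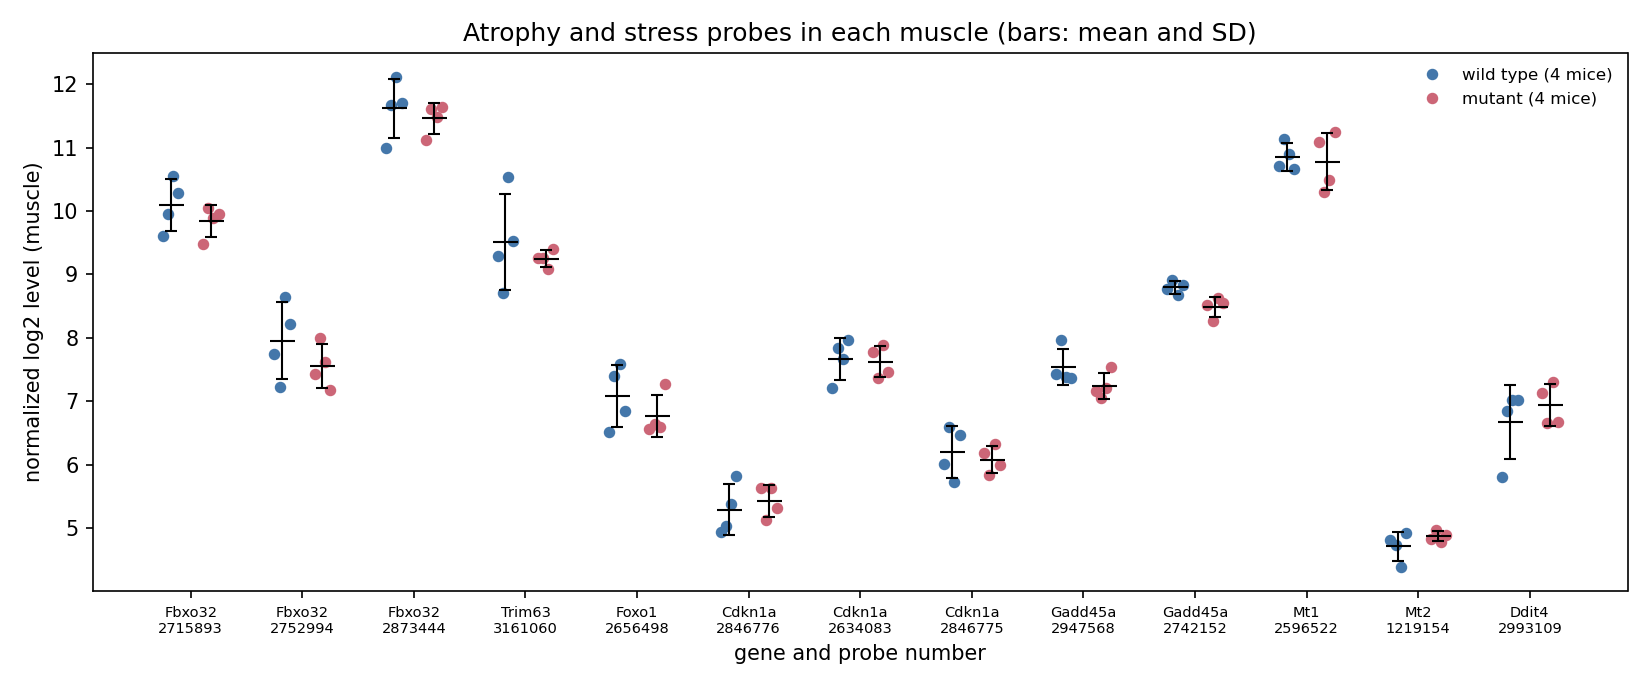
Normalized log2 level (vertical axis) of the 13 tested probes in each muscle, with the gene and the number of its probe along the horizontal axis. Points are single mice, 4 wild type and 4 mutant, and bars are the mean and SD. The genotypes overlapped for every probe but Gadd45a ILMN_2742152, whose mutants reached at most 8.63 and whose wild types began at 8.68.

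Foxo1 was the FoxO factor among the member genes that could be measured. Its levels were 6.52, 7.40, 7.58 and 6.85 in the wild-type muscles and 6.57, 6.64, 6.60 and 7.27 in the mutants. The genotypes overlapped, with mutant 4 high and wild type 1 low. The log2 difference was -0.32 (SE 0.24, 95% interval -0.85 to 0.21), and it was -0.51 without wild type 1 and -0.15 without wild type 3. The Foxo3 probe was above background on 0 of the 20 arrays, with a lowest detection p of 0.0614 among the wild-type muscles. The Mstn probe was likewise above background on 0 of the 20 arrays, with a lowest detection p of 0.906 among the wild-type muscles. No level or difference is given for these 2 genes, and what their probes missed cannot be read from these arrays.

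Fbxo32 had 3 probes, and each gave a negative log2 difference that did not pass the test. Its probe ILMN_2873444 read 10.996, 11.68, 12.11 and 11.70 in the wild types and 11.12, 11.61, 11.49 and 11.65 in the mutants. The mutants lay inside the range of the wild types. The difference was -0.16 (SE 0.22, 95% interval -0.63 to 0.32), and it was 0.0065 without wild type 3. ILMN_2715893 read 9.60, 9.96, 10.55 and 10.28 in the wild types and 9.48, 10.04, 9.90 and 9.96 in the mutants. Its genotypes overlapped too, at a difference of -0.25 (SE 0.20, 95% interval -0.70 to 0.19) that was -0.42 without wild type 1 and -0.10 without wild type 3. ILMN_2752994 read 7.75, 7.22, 8.65 and 8.21 in the wild types and 7.43, 8.0, 7.62 and 7.18 in the mutants. It had the widest difference of the 13 probes, -0.40 (SE 0.28, 95% interval -1.02 to 0.22), again with overlap. That value was -0.65 without wild type 2 and -0.17 without wild type 3.

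Trim63 read 9.29, 8.71, 10.53 and 9.53 in the wild-type muscles and 9.26, 9.26, 9.08 and 9.39 in the mutants. The wild types held both the lowest and the highest value and enclosed all 4 mutants. Wild-type levels spanned 3.53-fold and mutant levels 1.24-fold, a description that was not tested. The log2 difference was -0.26 (SE 0.30, 95% interval -0.93 to 0.41), and it was 0.076 without wild type 3.

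Gadd45a was the 1 gene with a probe whose groups did not overlap. ILMN_2742152 read 8.76, 8.91, 8.68 and 8.83 in the wild types and 8.52, 8.27, 8.63 and 8.55 in the mutants, so that every mutant lay below every wild type. Among the 13 probes this held for 1, and over all tested probes for 1.09%, while mutants lay above wild types for 0 of the 13 and for 1.06% of all tested probes. The mutant level was 81.0% of the wild-type level (log2 difference -0.30, SE 0.12, 95% interval -0.56 to -0.046, unadjusted p = 0.0250), which did not pass the adjusted test (limma, adjusted p = 0.999).

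The second Gadd45a probe, ILMN_2947568, read 7.43, 7.97, 7.38 and 7.37 in the wild types and 7.17, 7.05, 7.21 and 7.54 in the mutants. Here mutant 4 exceeded 3 of the wild types and wild type 2 stood above the rest. Its difference was -0.30 (SE 0.16, 95% interval -0.66 to 0.065), and it was -0.15 without wild type 2, the array that stood apart. In bulk RNA, fewer cells of a type and less RNA per cell cannot be told apart. All 7 pancreatic acinar markers were lower in the mutant muscles by the same test, with a mean log2 level of 6.50 to 7.31 in the wild types and 5.13 to 5.26 in the mutants. The 6 fibroblast and matrix markers had a mean of 8.08, 9.24, 8.10 and 8.15 in the wild types, where 9.24 was wild type 2. In the mutants their mean was 7.68 to 8.10, and 0 of them passed the test. The part of either marker set in the Gadd45a values was not tested.

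Cdkn1a, the cell cycle inhibitor, gave differences near 0 on its 3 probes. ILMN_2634083 read 7.20, 7.83, 7.66 and 7.96 in the wild types and 7.78, 7.37, 7.89 and 7.45 in the mutants, a difference of -0.040 (SE 0.18, 95% interval -0.44 to 0.36). ILMN_2846776 differed by 0.13 (SE 0.20, 95% interval -0.31 to 0.57) and ILMN_2846775 by -0.12 (SE 0.20, 95% interval -0.55 to 0.32). The genotypes overlapped on all 3 probes. ILMN_2846776 ran from 0.019 to 0.31 when single mice were left out, and the other 2 probes of the gene changed sign.

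Mt1 read 10.71, 11.14, 10.90 and 10.66 in the wild-type muscles and 11.08, 10.31, 10.49 and 11.24 in the mutants. The mutants spread on both sides of the wild types, and the difference was -0.074 (SE 0.21, 95% interval -0.54 to 0.39). Mt2 was dim, above background on 3 of 4 wild-type and on 4 of 4 mutant arrays. It read 4.81, 4.72, 4.39 and 4.92 in the wild types and 4.82, 4.97, 4.79 and 4.90 in the mutants. The groups overlapped, at a difference of 0.16 (SE 0.13, 95% interval -0.13 to 0.44), which the offset added before the log shrinks for a probe so close to background.

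Ddit4 read 5.80, 6.85, 7.02 and 7.02 in the wild types and 7.13, 6.66, 7.30 and 6.67 in the mutants. Wild type 1 lay far below the other 7 muscles. The difference was 0.27 (SE 0.27, 95% interval -0.32 to 0.86), the highest of the 13, and it was -0.021 without that mouse.

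**Figure D2:**
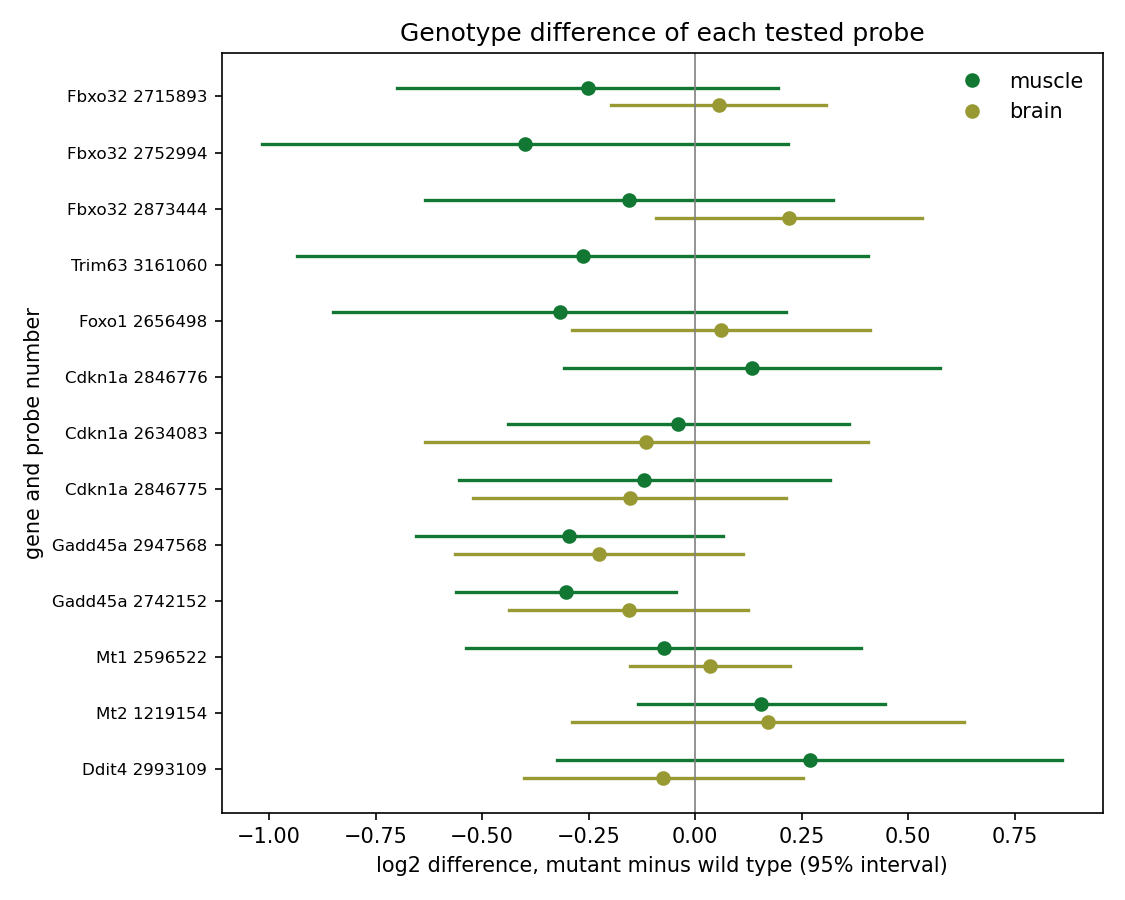
Log2 difference, mutant minus wild type, of each tested probe (horizontal axis) with its 95% interval, in muscle (4 against 4 mice) and brain (6 against 6 mice). Rows are genes with the number of their probe, and 3 probes were tested in muscle only. The intervals held 0 for every probe but Gadd45a ILMN_2742152 in muscle, which ran from -0.56 to -0.046.

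Several of these genes had a high SD within genotype, pooled over wild types and mutants. The SD within genotype in muscle was 0.545 on the log2 scale for Trim63, 0.498 for Fbxo32 ILMN_2752994, 0.475 for Ddit4 and 0.418 for Foxo1, against a median of 0.203 over all tested probes. That placed Trim63 at the 97.3rd percentile of tested probes and Foxo1 at the 93.4th. For Trim63 the spread lay in the wild types, with an SD of 0.760 against 0.129 in the mutants. The brighter Fbxo32 probes, ILMN_2715893 and ILMN_2873444, were at the 86.5th and 89.6th percentiles. Gadd45a ILMN_2742152 was among the steadier probes, with an SD of 0.130 at the 15.3rd percentile. In brain Mt1 had an SD of 0.117 at the 5.22nd percentile of its tissue, while Mt2 reached 0.419 at the 90.4th. Quantile normalization gives probes of equal rank the same value, and wild-type brains 1, 3 and 6 all read 13.342 for Mt1. Its signals before normalization ran from 8027 to 14509 over the brains. The small SD is therefore not read as low variation between mice.

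Whether regulator and target varied together was examined over 9 pairs, 5 in muscle and 4 in brain, each gene by its brightest tested probe. Foxo1 and Fbxo32 in the 8 muscles had a Pearson r of 0.80 (two-sided exact permutation p = 0.0111, adjusted over the 9 pairs 0.0998) and a Spearman coefficient of 0.93 (exact p = 0.00223, adjusted 0.0201). The muscles with the lowest Foxo1, wild type 1 and mutant 1, also had the lowest Fbxo32, and wild type 3 was highest for both. Without wild type 2 and wild type 3, the muscles farthest from the median of Foxo1, r was 0.63. With each group's mean removed r was 0.79 (exact p = 0.0135, adjusted 0.122) and Spearman's coefficient was 0.79 (exact p = 0.0279, adjusted 0.126). The pair thus passed the adjusted test by rank over the pooled muscles, and neither by Pearson's r nor within genotypes. This holds for the brightest Fbxo32 probe, ILMN_2873444, and the other probes of the gene were not tested for correlation. On ILMN_2752994 wild type 2 (7.22) and mutant 4 (7.18) were the lowest muscles, although their Foxo1 was high (7.40 and 7.27).

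The 2 ligases, Fbxo32 and Trim63, had an r of 0.54 (exact p = 0.173, adjusted 0.632) and a Spearman coefficient of 0.48 (exact p = 0.243, adjusted 0.639) in muscle. Without wild type 1 and mutant 1, the muscles farthest from the median of Fbxo32, r was 0.86. Without wild type 2, which stood apart on the first principal component, r was 0.73 (exact p = 0.0438, adjusted 0.197). The other 3 muscle pairs had r of -0.27 for Mt1 with Mt2, 0.40 for Cdkn1a with Gadd45a and -0.19 for Ddit4 with Mt2. In the 12 brains r was 0.30 for Foxo1 with Fbxo32, 0.34 for Mt1 with Mt2, -0.25 for Cdkn1a with Gadd45a and -0.074 for Ddit4 with Mt2. None of these passed by either coefficient, with a permutation p of 0.294 or more and an adjusted p of 0.632 or more. Spearman's coefficient was -0.33, 0.40 and -0.38 for the other muscle pairs and 0.30, 0.12, -0.22 and 0.17 for the brain pairs, in the same order. Without the 2 mice farthest from the median of the first gene, r was -0.27, 0.55 and -0.42 in muscle and 0.16, 0.37, 0.32 and -0.23 in brain.

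**Figure D3:**
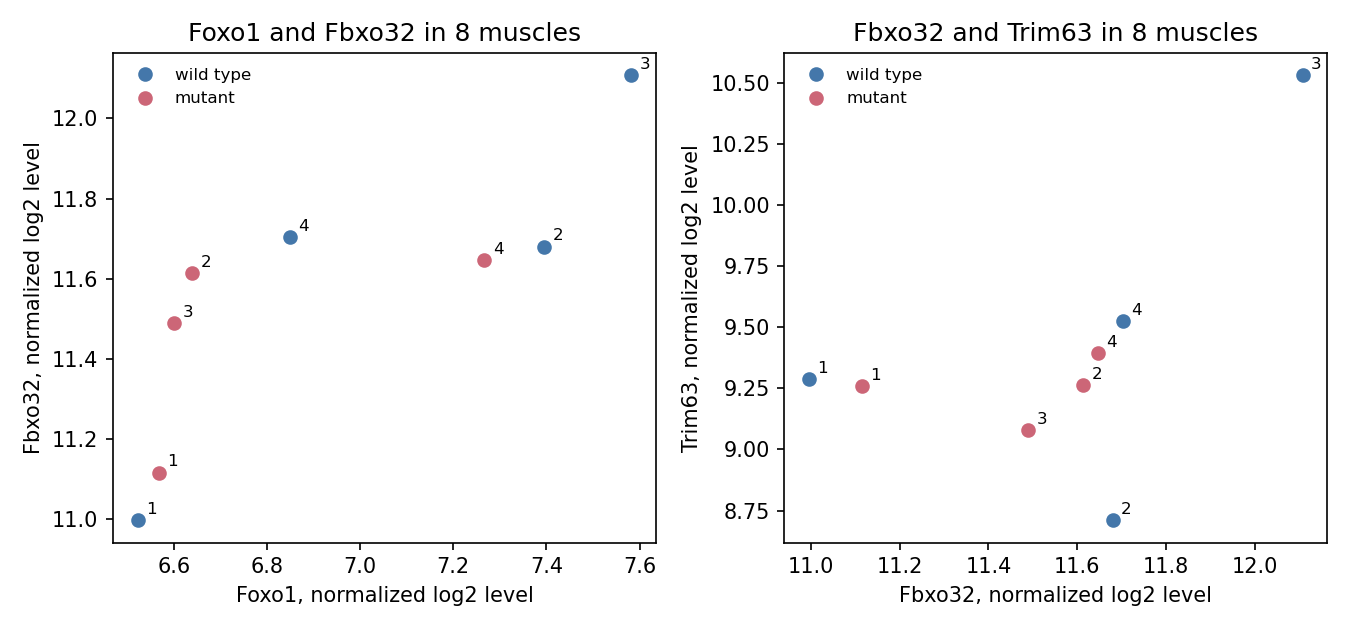
Normalized log2 levels of Fbxo32 against Foxo1 (left) and of Trim63 against Fbxo32 (right) in the 8 muscles, numbered by replicate and coloured by genotype. In the left panel r was 0.80, and in the right panel it was 0.54, with wild type 3 highest on all 4 axes and wild type 2 lowest for Trim63.

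Among 8289 genes, those whose levels followed Fbxo32 most closely over the 8 muscles were Mta1 (Pearson r 0.94), Klhl38 (0.94) and Plekhj1 (0.93). For Trim63 they were Zfp346 (0.95), Pacsin1 (0.94) and Tmem9b (0.93). For Cdkn1a they were Sgsm2 (0.92), Wwtr1 (0.90) and Neil1 (0.88), and for Mt2 Trmt10a (0.94), Siae (0.93) and Sacm1l (0.92). These are descriptions over arrays that share their normalization, the highest of many values, and carry no test.

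Of 112 further genes in 9 lists of the same pathways, 79 were tested in muscle, and 0 passed in either direction. Over all tested genes 0.012% passed as higher and 0.205% as lower, so that a list of this size would be near 0 calls at that share. Their differences were above 0 for 46 and below 0 for 33, with a median of 0.039 against 0.013 over all tested genes, and 2 had an unadjusted p under 0.05, as did 3.04% of all tested genes. Those were Igf1r, the IGF receptor (log2 difference 0.34, 95% interval 0.060 to 0.61), and Nfkbia, the inhibitor of NF-kB (0.29, 95% interval 0.043 to 0.53).

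Among ubiquitin ligases and other atrogenes 0 of 13 tested passed, with 7 differences above 0, a median of 0.0047 and a range from -0.13 for Trim54 to 0.20 for Trim32. Of 11 FoxO family and FoxO-target autophagy genes 0 passed, at a median of 0.039, and Atg4b, a protease of autophagosome formation, had the lowest p (-0.22). Of 12 insulin, IGF and Akt-mTOR genes 0 passed, at a median of -0.080, with Igf1 at -0.31 beside its receptor's 0.34. The 10 tested genes of the myostatin and activin pathway had a median of 0.043 and 0 calls, with the myostatin-binding protein gene Wfikkn2 at 0.23 and the receptor Acvr2b at 0.27.

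The 8 glucocorticoid-induced genes had a median of 0.049 and 0 calls, from -0.29 for Angptl4 to 0.37 for Per1. The 7 p53 and growth-arrest genes had a median of 0.090 and 0 calls, with Gadd45g, a relative of Gadd45a, at 0.31 and Gadd45b at -0.11. Among 9 genes of the integrated stress response and hypoxia 0 passed, at a median of 0.013. Atf4, the central transcription factor of that response, stood at 0.41 (95% interval -0.0048 to 0.83), and Ddit3, one of its targets, at -0.30. The 4 tested metal handling genes had a median of -0.020 and 0 calls, with Hmox1 at -0.18 and Mtf1, the metal-responsive factor of the metallothionein genes, at 0.090. The 5 tested inflammatory wasting signals had a median of 0.29 and 0 calls, with Il15 at 0.33 and Tnfrsf12a, the TWEAK receptor, at -0.35.

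In brain the question was whether the same genes differed in the mutants' other sampled tissue. Of the 15 probes 10 were tested, covering 7 genes, and 0 passed against 0.00805% of all 12423 tested probes. At an unadjusted p under 0.05 there were 0 of the 10, against 870 of all tested probes. The differences were above 0 for 5 probes and below 0 for 5, from -0.23 to 0.22, with a median of -0.021 and adjusted p-values (limma) of 0.797 to 0.961. Every mutant lay below every wild type for 0 of the 10 probes (0.386% of all tested) and above for 0 (0.209%).

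Fbxo32 ILMN_2873444 ran from 5.20 to 6.08 in the wild-type brains (median 5.79) and from 5.65 to 6.20 in the mutants (median 5.99). The groups overlapped, at a difference of 0.22 (SE 0.15, 95% interval -0.091 to 0.53). The dimmer Fbxo32 ILMN_2715893 was above background on 4 wild-type and 5 mutant brain arrays, and differed by 0.055 (95% interval -0.20 to 0.31). Trim63 and Fbxo32 ILMN_2752994 were above background on 0 brain arrays, and Cdkn1a ILMN_2846776 on 1 wild-type and 4 mutant brains, so these were not tested.

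Gadd45a ILMN_2742152 ran from 6.19 to 6.92 in the wild-type brains (median 6.55) and from 6.24 to 6.52 in the mutants (median 6.44). The mutants lay within the range of the wild types. The difference was -0.16 (SE 0.13, 95% interval -0.44 to 0.12), and ILMN_2947568 gave -0.23 (SE 0.16, 95% interval -0.56 to 0.11). Cdkn1a ILMN_2634083 ran from 6.02 to 7.89 in the wild types (median 6.52) and from 6.35 to 6.76 in the mutants (median 6.60). Its difference of -0.12 (95% interval -0.64 to 0.40) was 0.12 without wild type 1, the highest of the 12 brains.

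After quantile normalization Mt1 lay in a narrow band in brain. It ran from 13.1 to 13.4 in the wild types (median 13.3) and from 13.2 to 13.5 in the mutants (median 13.3), with overlap. Its difference was 0.034 (SE 0.088, 95% interval -0.15 to 0.22). Mt2 ran from 4.90 to 5.44 in the wild types (median 5.17) and from 4.83 to 6.34 in the mutants (median 5.16). Its groups overlapped, with mutant values on both sides of the wild types, at a difference of 0.17 (95% interval -0.29 to 0.63), or -0.029 without mutant 1. Foxo1 differed by 0.060 (95% interval -0.29 to 0.41) and Ddit4 by -0.075 (95% interval -0.40 to 0.25). In the 6 brains with Eif2s3y, 0 of the tested probes passed as well. There the differences of Fbxo32 ILMN_2715893, Foxo1 and Mt1 turned to -0.035, -0.042 and -0.088. Those brains include wild types 2 and 4 and mutant 2, the arrays that stood apart. The part of Eif2s3y and of those arrays in the changes of sign cannot be told apart. Of 69 tested genes of the 9 lists 0 passed in brain, where 0.011% of all tested genes passed as higher and 0 as lower. Their median was -0.029, and 3 had an unadjusted p under 0.05, as did 6.78% of all tested genes.

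The difference of the genotype effect between muscle and brain was tested as an interaction over all 20 arrays. Of 13 probes 0 passed, against 0.175% of all 14830 tested probes, and 0 had an unadjusted p under 0.05. The differences, muscle effect minus brain effect, ran from -0.37 to 0.33, with adjusted p-values (limma) of 0.995 to 0.998 and standard errors of 0.19 to 0.36. Of 81 tested genes of the lists 0 passed.

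Wild-type muscle and wild-type brain were compared next. With all arrays normalized together, and among the 10 probes above background in both tissues, 6 were higher in wild-type muscle than in wild-type brain and 2 were lower, against 43.2% and 30.7% of all 10107 such probes. The 6 belong to Fbxo32, Gadd45a and Cdkn1a, the 2 to Mt1 and Ddit4, and Foxo1 and Mt2 did not pass. With the 3 probes that were above background in too few brains to be tested there, 9 of 13 were higher and 2 lower. Of all tested probes 38.7% were higher and 33.7% lower. Among those 3, Trim63 and Fbxo32 ILMN_2752994 entered the fit through muscle alone and had to be higher there. Requiring detection on every array left 5 of 8 higher, with Mt1 and Ddit4 still lower. Of all 7929 such probes, 6129 passed in either direction, and the share higher in muscle alone was not counted. Counts over so few probes are not read as a result about these genes. Muscle and brain came from different mice, so tissue and set of mice cannot be told apart.

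Fbxo32 ILMN_2873444 averaged 11.3 ± 0.42 (SD, n = 4) in wild-type muscle and 5.66 ± 0.32 (SD, n = 6) in wild-type brain. The difference was 5.66 on the log2 scale, or 50.5-fold (95% interval 38.99 to 65.4, limma, adjusted p = 1.7e-17). ILMN_2715893, above background in 4 of 6 wild-type brains, gave 35.8-fold (limma, adjusted p = 3.4e-18). ILMN_2752994, not above background in any wild-type brain, was at least 10.3-fold higher in muscle. Trim63, also not above background there, was at least 28.0-fold higher in muscle. These 2 bounds carry no test, since both probes entered the fit through muscle alone, and they set the muscle mean against the lowest level among detected probes of each brain array. On Fbxo32 ILMN_2873444 the muscles of both genotypes began at 10.7, and the brains reached at most 6.13. On ILMN_2715893 the muscles began at 9.34, and the brains reached at most 5.01. How many of all probes separate the tissues in this way was not counted.

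Gadd45a was higher in wild-type muscle on both probes, 4.66-fold on ILMN_2742152 (95% interval 3.85 to 5.63, limma, adjusted p = 1.3e-12) and 3.93-fold on ILMN_2947568 (adjusted p = 6.0e-10). Its 4 groups on ILMN_2742152 ranked wild-type muscle 8.72 ± 0.092, mutant muscle 8.43 ± 0.15, wild-type brain 6.50 ± 0.32 and mutant brain 6.34 ± 0.11 (mean ± SD, n = 4 in muscle and 6 in brain). Cdkn1a was higher in muscle by 1.97-fold on ILMN_2634083 and 2.04-fold on ILMN_2846775 (limma, adjusted p = 0.0016 and 5.7e-05). Its other probe, ILMN_2846776, was above background in 1 of 6 wild-type brains, and no fold is given. In the brains with Eif2s3y, ILMN_2634083 no longer passed (log2 difference 0.62, adjusted p = 0.0733).

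Mt1 averaged 10.6 ± 0.20 (SD, n = 4) in wild-type muscle and 13.8 ± 0.10 (SD, n = 6) in wild-type brain, 9.15-fold higher in brain (log2 difference, muscle minus brain, -3.19, 95% interval -3.48 to -2.90, limma, adjusted p = 5.5e-15). The Mt2 probe did not separate the tissues in this way, with 4.81 ± 0.28 in wild-type muscle and 5.09 ± 0.17 in wild-type brain (log2 difference -0.29, 95% interval -0.72 to 0.15, limma, adjusted p = 0.226). Ddit4 was 2.41-fold higher in brain (log2 difference -1.27, 95% interval -1.71 to -0.83, adjusted p = 1.4e-05). Foxo1 stood at 7.12 ± 0.44 in wild-type muscle and 6.81 ± 0.31 in wild-type brain, a difference of 0.31 (95% interval -0.12 to 0.74, limma, adjusted p = 0.183).

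Among the 68 list genes above background in both tissues, 37 were higher and 12 lower in wild-type muscle, against 42.5% and 32.8% of all 7316 such genes. All 6 p53 and growth-arrest genes were higher in muscle, among them Ccng1, a cyclin gene induced by p53, by 3.81 on the log2 scale. Of 11 ligases and other atrogenes 9 were higher, among them Asb2, a ubiquitin ligase subunit, by 7.06, and 2 were lower, among them Trim32 at -3.47.

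**Figure D4:**
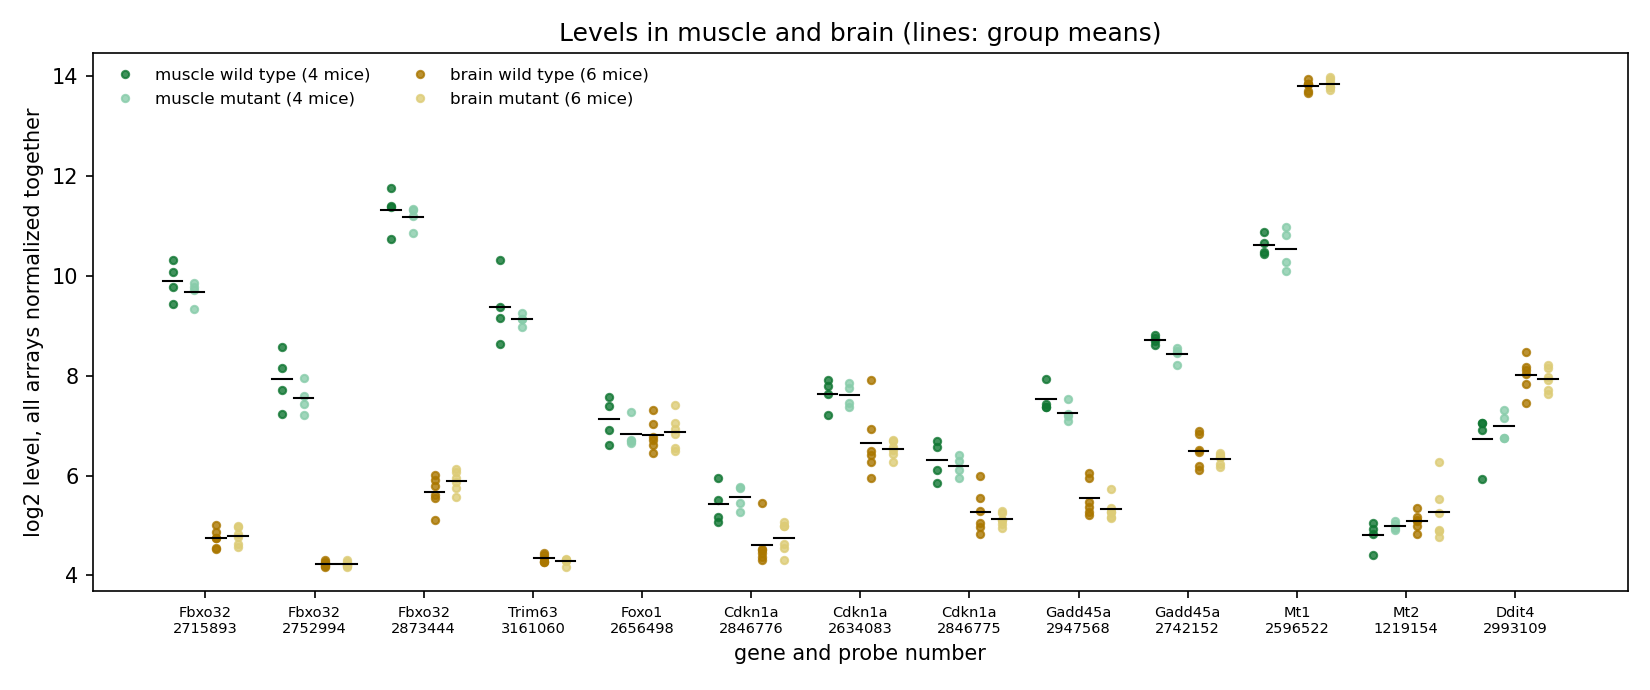
Log2 levels of the 13 probes with all 20 arrays normalized together (vertical axis), by gene and probe number, in wild-type and mutant muscle (4 mice each) and wild-type and mutant brain (6 mice each). Points are mice and lines are group means. Fbxo32 and Trim63 were high in muscle, with 11.3 against 5.66 in wild types for Fbxo32 ILMN_2873444, while Mt1 was higher in brain, with 13.8 against 10.6 in muscle.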

How the data were processed

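RNA was measured on Illumina mouse bead arrays, biotin-labelled after Trizol and RNeasy extraction per the labels. The deposited table holds an intensity per probe and array, neither background-subtracted nor normalized, with a detection p-value per the file headers. A second deposited table, with intensity as processed by the authors, served as an alternative. The submitters' processing notes name GenomeStudio 2011.1. The platform annotation named 1 gene for 23978 probes.

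Signals were background-corrected by normexp with background inferred from the detection p-values, offset by 16, quantile normalized and log2 transformed (limma 3.58.1, R 4.3.3, following neqc), within each tissue for genotype and over all arrays for interaction and tissue. Probes needed a detection p under 0.05 on at least 4 muscle arrays, 6 brain arrays or 4 of all arrays. Group means were fitted over all such probes with lmFit and eBayes, with Benjamini-Hochberg adjustment and a threshold of 0.05. A list gene was read by its brightest tested probe. Correlations had exact permutation tests in muscle and 100000 permutations in brain.

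The genes, lists and tests were chosen with earlier results of these data known. The count over probes above background in both tissues was added after seeing the data. The genes named are all 10 members, up to 4 genes per list by lowest p in muscle, genes called, and the 3 closest correlates of 4 members. The scripts were tested on simulated data. Precision is limited by the number of arrays. The highest correlation between 2 arrays of a tissue was 0.990, and 0 arrays were identical. Alternatives were other background, offset, scaling and filter settings, array weights, a trended and robust variance prior, a replicate block, a joint fit, the authors' values and each mouse left out.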

Additional observations from a re-analysis of the deposited data

Results flagged for a closer look

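In groups of 4 or 6 mice, 1 mouse lay far from the others in 4 of 46 groups of values checked, where chance gives about 1 in 20. Foxo1 in mutant muscle 4 was 7.27, while the other 3 mutants were at 6.57 to 6.64. Gadd45a ILMN_2947568 in wild-type muscle 2, the array that stood apart on the first principal component, was 7.97 against 7.37 to 7.43 in the others. The same probe in brain mutant 2, an array that also stood apart, was 5.81 against 5.24 to 5.44. Ddit4 in wild-type muscle 1 was 5.80 against 6.85 to 7.02.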

How the results depend on the processing

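No probe of the 10 genes passed for genotype under any alternative run, 19 in muscle, 25 in brain and 31 for the interaction, with a lowest adjusted p (limma) of 0.821 in muscle and 0.513 in brain. Over all probes, calls ranged from 1 to 26 in muscle (21 as reported), 0 to 5 in brain (1), 3 to 30 for the interaction (26) and 6129 to 11294 between tissues (10737). With the replicate block 0 member probes passed in either tissue, and the Gadd45a ILMN_2742152 difference stayed at -0.30, while over all probes 12 passed in muscle and 0 in brain. Deviations of same-numbered mice correlated at -0.25 to 0.10 in muscle and -0.070 to 0.62 in brain, where 4 of 6 pairs were at 0.22 or more, and were best for the own number in 1 of 4 and 2 of 6. As this did not hold for every pair and no label ties the numbers, the mice were not treated as pairs. That probe kept its sign in 19 of 19 alternatives (-0.35 to -0.23). Array weights turned Cdkn1a to 0.027 (ILMN_2634083) and 0.0064 (ILMN_2846775) in muscle and the former to 0.081 in brain. The Eif2s3y level as a covariate turned that probe to 0.0047 in muscle. Median scaling, which moved the median of all probes to -0.205 in brain, turned Fbxo32 ILMN_2715893 to -0.024, Foxo1 to -0.21 and Mt1 to -0.12 there. Among the alternatives chosen after seeing the data, the brains with Eif2s3y turned them to -0.035, -0.042 and -0.088. The brain correlation of Ddit4 with Mt2 was 0.036 without the arrays that stood apart. Requiring detection on every array left 5 probes higher in muscle, of 8 tested, with Mt1 and Ddit4 still lower. Of all 7929 such probes, 6129 passed in either direction, and the share higher alone was not counted. With the authors' values Mt2 passed between tissues (-0.49, adjusted p = 0.0425).

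Leaving out single mice turned the sign of some differences. In muscle they ranged from -0.19 to 0.059 for Cdkn1a ILMN_2634083, -0.28 to 0.012 for ILMN_2846775, -0.021 to 0.39 for Ddit4, -0.36 to 0.0065 for Fbxo32 ILMN_2873444, -0.23 to 0.083 for Mt1 and -0.54 to 0.076 for Trim63. In brain they ranged from -0.25 to 0.12 for Cdkn1a ILMN_2634083, -0.18 to 0.013 for Ddit4, -0.040 to 0.15 for Foxo1 and -0.029 to 0.28 for Mt2. Without a change of sign they ranged there from 0.11 to 0.28 for Fbxo32 ILMN_2873444, -0.25 to -0.012 for Cdkn1a ILMN_2846775, -0.31 to -0.12 for Gadd45a ILMN_2947568 and -0.23 to -0.082 for ILMN_2742152, and in muscle from 0.050 to 0.23 for Mt2. The cause was not tested. A block by slide could not be run because the headers give no slide. Foxo3, Mstn and Mt2 were limited by signal near background.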
